A study of Rattus norvegicus with 2 samples.

Results

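Genes of antigen presentation, 4 in number, were followed in left ventricular (LV) tissue of Dahl salt-sensitive (DS) rats, out of 20174 genes with a probe on the array. Cd74 (ENSRNOG00000018735) was chosen from the study's list of genes that were low in the failing heart and higher with chaetocin, so its own fall and rise were fixed by that choice. RT1-Da (ENSRNOG00000032844), RT1-Ba (ENSRNOG00000000451) and B2m (ENSRNOG00000017123) were chosen by name, with earlier results of these arrays known. All 4 IDs had 1 spot on each array, and none of these spots was flagged or saturated. The name of Cd74 was paired with its ID in the study's table; the other 3 names were taken as given with the gene list, since no file analysed here pairs them with the IDs.

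Cd74 is the invariant chain, which binds newly made class II molecules, fills their peptide groove and guides them to the compartments where foreign peptides are loaded. RT1-Da and RT1-Ba are the alpha chains of the rat class II molecules RT1-D and RT1-B, which show peptides from outside the cell to CD4+ T cells. In the heart, class II molecules are known mainly from macrophages and dendritic cells between the myocytes. B2m, β2-microglobulin, is the light chain of class I molecules and is made by nearly all nucleated cells, so it served as the class I partner of the set.

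Male DS rats of 3 groups were compared, and 3 rats of each group were pooled into 1 RNA sample. The control group [NS (−)] was fed a diet with 0.3% NaCl and the heart failure (HF) group [HS (−)] a diet with 8% NaCl. The treatment group [HS (ch+)] was fed a diet with 8% NaCl and given 0.25 mg/kg of chaetocin, an inhibitor of histone methyltransferases. It was dissolved in dimethyl sulfoxide (DMSO) and injected intraperitoneally from week 6 to week 13 of age, 2 times per week. The main text of the study does not state that NS (−) or HS (−) rats were injected with DMSO. The tissue was taken at the stage of heart failure. Array 1 carried HS (−) in Cy5 and NS (−) in Cy3, and array 2 carried HS (−) in Cy5 and HS (ch+) in Cy3. There was 1 array for each comparison, with no replicate and no dye swap, so no test could be made and every statement below describes these pools.

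RefSeq places all 4 genes on the plus strand of the GRCr8 assembly, and the promoters are shown because class II genes and the invariant chain are known to share promoter elements of the class II transactivator, the X and Y boxes. Cd74 lies at chr18:56527071-56536406, RT1-Da at chr20:4515393-4520387, RT1-Ba at chr20:4577057-4581650 and B2m at chr3:129549236-129555354. The class II genes are neighbors, with 56669 bases between them. The sequences below end at the last base before the outermost start given by RefSeq. Capitals mark GCAAC, a form of the core of the X box, and ATTGG or its reverse complement CCAAT, the core of the Y box. They also mark GAAA repeated after 2 further bases, a pattern of interferon response elements. The motifs were chosen after the sequences had been seen.
Cd74, chr18:56526956-56527070: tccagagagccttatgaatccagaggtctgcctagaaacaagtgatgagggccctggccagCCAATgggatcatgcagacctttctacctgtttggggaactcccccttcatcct
RT1-Da, chr20:4515273-4515392: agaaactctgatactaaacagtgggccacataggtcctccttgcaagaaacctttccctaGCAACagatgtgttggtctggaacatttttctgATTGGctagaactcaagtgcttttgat
RT1-Ba, chr20:4576937-4577056: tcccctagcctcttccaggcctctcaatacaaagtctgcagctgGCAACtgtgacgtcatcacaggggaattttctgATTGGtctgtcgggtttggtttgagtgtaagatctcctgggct
B2m, chr3:129549116-129549235: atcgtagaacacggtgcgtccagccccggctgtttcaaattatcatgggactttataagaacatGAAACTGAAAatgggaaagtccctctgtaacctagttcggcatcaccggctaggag

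For Cd74 and B2m, the start site of the RefSeq promoter window lies 135 and 94 bases inside the outermost start, and the stretch between them holds 1 more match of the marked motifs in each gene, shown with the bases around it.
Cd74, chr18:56527123-56527152: cagttccacattaGCAACgtgggcggagtg
B2m, chr3:129549253-129549282: gatctgagttcggATTGGctgctagatcgg

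The promoters of RT1-Da and RT1-Ba had the same arrangement, GCAAC followed by ATTGG with 28 bases between them. Over both strands of the 33469 promoter windows of 300 bases in RefSeq, GCAAC was found in 35.1%, ATTGG in 37.5%, and GCAAC with ATTGG following within 40 bases in 1.63%. Cd74 had both motifs, GCAAC starting 70 bases before the start site of its window and CCAAT 189 bases before it, but not as such a pair. Only the exact letters GCAAC were searched, so X boxes with other letters were not looked for. Ahead of its CCAAT, Cd74 has cctagaaac, where RT1-Da has cctaGCAAC ahead of its ATTGG. Whether either stretch of Cd74 is its X box was not tested, so a missing pair does not mean a missing X and Y arrangement. B2m had ATTGG 64 bases before the start site of its window, no GCAAC, and the interferon response pattern, which 3.92% of the windows hold. RT1-Ba also had TGACG on both strands within its pair, 69 and 66 bases before the start site of its window. Its ATTGG lay 43 bases before that site. B2m had TGACG on 1 strand, 89 bases before the start site of its window, and thus also ahead of its ATTGG. This order was therefore not particular to the class II chains. TGACG was found in 21.2% of the windows. These matches describe the letters of the windows only, and the arrays did not measure binding.

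Signals were the median intensity of a spot after subtraction of the mean of the blank spots, and have no unit. The SD of the trimmed blanks was 0.735 to 2.04, and the weakest reading of the 4 genes was 178. For Cd74 the signal was 4345 in NS (−) and 1404 in HS (−) on array 1, and 2044 in HS (−) and 4916 in HS (ch+) on array 2. HS (−) was the lower reading on both arrays. For RT1-Da the signal was 329 in NS (−) and 178 in HS (−), then 233 in HS (−) and 479 in HS (ch+). For RT1-Ba it was 497 in NS (−) and 263 in HS (−), then 278 in HS (−) and 616 in HS (ch+). For both class II chains HS (−) was again the lower reading on each array. For B2m the signal was 2916 in NS (−) and 2036 in HS (−), then 2589 in HS (−) and 4369 in HS (ch+), which is the same order with a smaller gap. As signals of different probes depend on the probe, they were compared within a gene only. These signals were not centered, and Cy3 was the brighter channel in general. The median log2 Cy3 over Cy5 ratio of genes and control spots was 0.17 on array 1 and 0.38 on array 2. Part of each gap is therefore shared by most genes, and the centered ratios below leave it out.

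**Figure D1:**
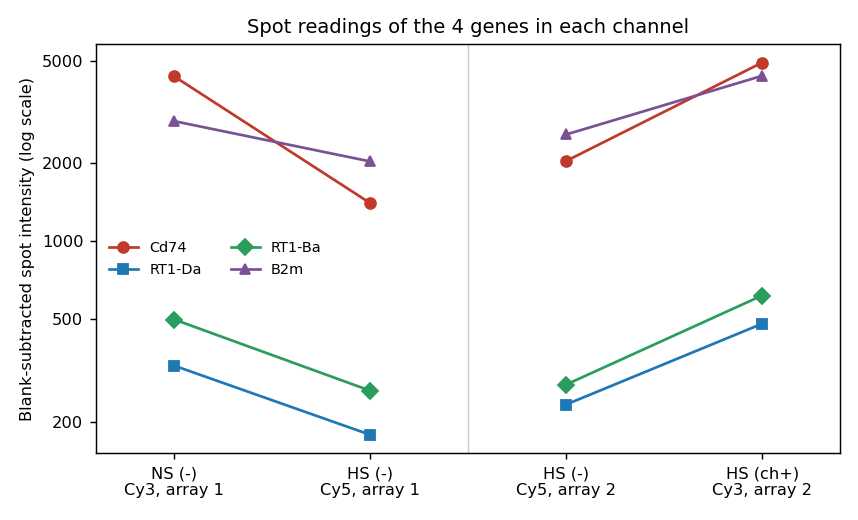
Blank-subtracted spot intensity (log scale, no unit) of Cd74, RT1-Da, RT1-Ba and B2m in the 4 channels, 1 pool of 3 rats each; lines join the channels of 1 array. HS (−) was the lower channel on both arrays for all 4 genes, with 1404 against 4345 for Cd74 on array 1. The signals are not centered, and Cy3 was brighter than Cy5 in the median over genes and control spots on both arrays. Heights differ between genes with the probe.

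The technical error was taken from HS (−), whose RNA, by the labels, was read in Cy5 on both arrays. Both HS (−) signals reached 100, with a ratio on each array, for 4127 genes, and over these the log2 difference between these readings had an SD of 0.16, a 1.12-fold difference, and a median of 0.15. Within an array, the log2 ratio over the 24 spots of a positive control had an SD between 0.059 and 0.064. Neither value contains the differences between rats. The SD of 0.16 comes from Cy5 readings alone, so it contains no error of the Cy3 readings and no preference of a probe for a dye. Multiples of this SD given below for the ratios therefore do not measure their full technical error. The 4 genes did not repeat equally well. After the median difference was removed, the HS (−) reading of RT1-Ba differed between the arrays by -0.07 on the log2 scale, that of B2m by 0.20, that of RT1-Da by 0.24 and that of Cd74 by 0.40, which is 2.48 times the SD.

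HS (−) was compared with NS (−) to ask whether the class II chains were low in the failing LV as Cd74 was. The ratio HS (−)/NS (−), centered on the median of the array, was 0.363 for Cd74, a description of the value by which it was chosen. It was 0.607 for RT1-Da and 0.596 for RT1-Ba, which were thus 1.65-fold and 1.68-fold lower in HS (−). On the log2 scale these are -0.72 and -0.75, or 4.51 and 4.68 times the SD of the repeated readings below 0, and the chains differed from each other by 0.03. B2m had a ratio of 0.785, which is -0.35 on the log2 scale and 2.19 times the SD. The median over the 4 genes was 0.601, and it was 0.607 over the 3 genes without Cd74, against 0.978 over the 4127 genes.

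Only Cd74 met the limit of 0.5 that the study set for this ratio, which 1.38% of the 4127 genes passed, and RT1-Ba was the nearest of the other 3. At a ratio under 0.714, a 1.4-fold fall, Cd74, RT1-Da and RT1-Ba passed and B2m did not, where 13.5% of all genes passed. B2m passed this limit at 0.608 when the recorded background of its own spot was subtracted and at 0.702 with normexp and loess, RT1-Ba missed it at 0.740 with normexp and loess, and RT1-Da and RT1-Ba missed it at 0.807 and 0.795 without background subtraction. A lower ratio than that of Cd74 was found in 12 of the 4127 genes, than that of RT1-Ba in 180 or 4.36%, than that of RT1-Da in 208 or 5.04%, and than that of B2m in 900 or 21.8%. The class II chains thus stood in the lower tail of all genes, and B2m just under the lower quartile, which lay at a ratio of 0.805.

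HS (ch+) was compared with HS (−) to ask whether the same genes were higher with chaetocin. The ratio HS (ch+)/HS (−) of Cd74 was 1.85, again a value by which it was chosen. RT1-Da had a ratio of 1.58 and RT1-Ba one of 1.70, or 0.66 and 0.77 on the log2 scale, which are 4.15 and 4.82 times the SD. They differed by 0.11 on the log2 scale from each other, less than the SD, and RT1-Ba differed from Cd74 by 0.12. B2m had a ratio of 1.30, which is 0.38 on the log2 scale and 2.37 times the SD. The median ratio was 1.64 over the 4 genes and 1.58 over the 3 genes without Cd74, against 1.02 over all genes.

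A ratio over 1.4, the second limit of the study, was reached by Cd74, RT1-Da and RT1-Ba and not by B2m, and by 5.86% of the 4127 genes. B2m reached it at 1.52 with 50 added to each signal and at 1.46 with the HS (−) readings exchanged between the arrays, and RT1-Da at 1.26 and RT1-Ba at 1.35 missed it without background subtraction. Higher ratios than that of Cd74 were found for 14 genes, than that of RT1-Ba for 36 or 0.872%, than that of RT1-Da for 76 or 1.84%, and than that of B2m for 432 or 10.5%. In the reported processing, RT1-Da and RT1-Ba met the limit for the rise and the signal minimum of 100, and missed the study's limit for the fall.

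**Figure D2:**
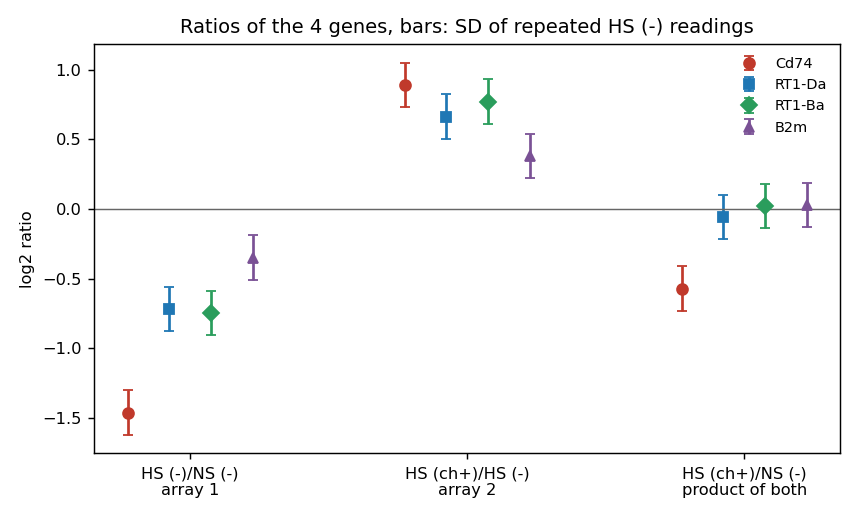
Log2 ratios of the 4 genes for HS (−)/NS (−) on array 1, HS (ch+)/HS (−) on array 2 and their product HS (ch+)/NS (−); bars show the SD of the repeated HS (−) readings, 0.16, a technical error that leaves out differences between rats. The class II chains lay between Cd74 and B2m in both measured ratios, and Cd74 alone was below 0 by more than the bar in the product. For every ratio, the bar also leaves out the errors of the Cy3 readings.

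By the labels, both ratios contain the same HS (−) pool in the same dye. A chance deviation of that pool to lower values, or a preference of a probe for Cy3, lowers the first ratio and raises the second. It cannot be told apart here from an effect of diet or of the chaetocin injections, with their DMSO. The 2 ratios are therefore given side by side and were not counted as separate evidence.

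**Figure D3:**
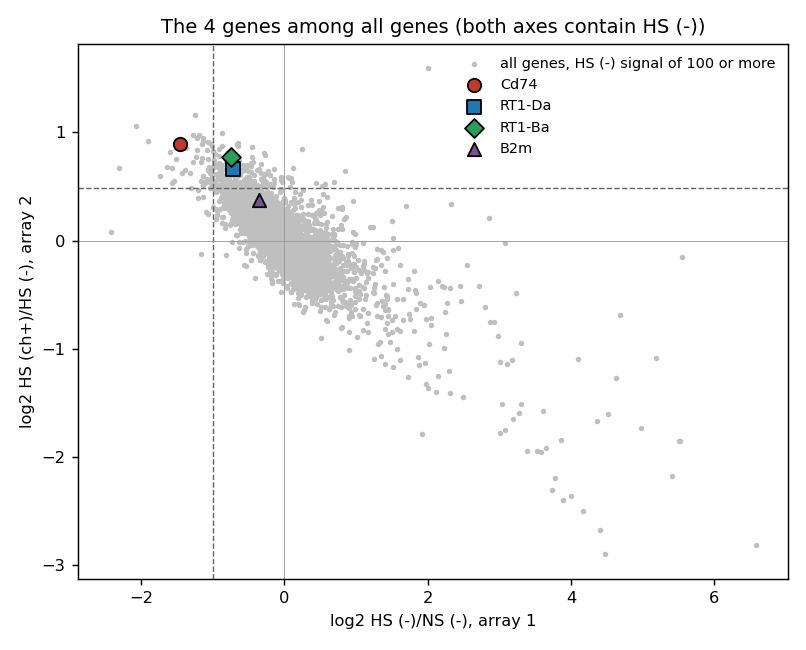
Log2 HS (−)/NS (−) (array 1) against log2 HS (ch+)/HS (−) (array 2) for the 4127 genes whose HS (−) signals reached 100 (grey) and the 4 genes (colored); dashed lines mark the study's limits of 0.5 and 1.4. Cd74 lies beyond both limits, RT1-Da and RT1-Ba beyond the second only, and B2m beyond neither; the slope of the cloud includes what the shared HS (−) pool contributes.

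HS (ch+) and NS (−) were read in the same dye, and the product of both ratios sets these pools against each other. HS (ch+)/NS (−) was 0.961 for RT1-Da, 1.02 for RT1-Ba and 1.02 for B2m, all within 1 SD of the NS (−) level, as were 49.2% of all genes. For Cd74 it was 0.673, or -0.57 on the log2 scale and 3.58 times the SD. The product contains the difference between the HS (−) readings from which this SD was taken. The errors of the Cy3 readings come on top, so the SD understates the technical error of the product. Of the 4127 genes, 2.47% had a ratio under 0.714, and 53 genes had a lower ratio than Cd74. The distance of Cd74 from NS (−) depended on how the arrays were joined. With the Cy3 signals alone, each scaled by its median, its ratio was 0.853, and after loess and Aquantile normalization, which equalizes the average intensities of the arrays, it was 0.946. These settings also moved RT1-Da, to 1.10 and 1.23, and left RT1-Ba at 0.934 with the Cy3 signals alone; B2m was at 1.13 with the Cy3 signals alone and at 1.29 after Aquantile. When the recorded background of its own spot was subtracted, HS (ch+)/NS (−) was 0.761 for Cd74, 1.15 for RT1-Ba and 0.845 for B2m, the last 2 being over 1 SD from NS (−), as B2m was with normexp and loess, at 0.795. The HS (−) readings of Cd74 that differed between the arrays, given above, enter the product of both ratios. They do not enter the value from the Cy3 signals alone.

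Among the 50 genes of the study's list, Cd74 had the 12th lowest HS (−)/NS (−) ratio and the 12th highest HS (ch+)/HS (−) ratio, and 18 of the 50 had a lower HS (ch+)/NS (−) ratio. The list was chosen on these arrays, and its median ratios were 0.446, 1.60 and 0.705. The 5 genes nearest to Cd74 by the distance over its 2 log2 ratios, among the 4126 other genes, were all on that list, which the place of Cd74 beyond both limits fixed. The nearest was Lrp16, a macro domain protein of mitochondria, at a distance of 0.048 with ratios of 0.360 and 1.79. Eno3, the muscle form of enolase in glycolysis, was the fourth at 0.15 with ratios of 0.330 and 1.77, and Ppa2, an inorganic pyrophosphatase of mitochondria, the fifth at 0.21 with ratios of 0.414 and 1.96. The second had no gene symbol in the list, and the third is described there as ataxin 2 binding protein, a splicing factor, with ratios of 0.351 and 1.69. The distance from Cd74 to RT1-Ba was 0.72 and that to RT1-Da 0.78.

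RT1-Da and RT1-Ba were 0.11 apart, which is less than the SD. Genes within 1 SD of RT1-Ba numbered 22, of RT1-Da 50, of B2m 261 and of Cd74 4. The 3 nearest genes of each of RT1-Da, RT1-Ba and B2m had no name here; the nearest of RT1-Da was ENSRNOG00000003229 with ratios of 0.610 and 1.58, and that of RT1-Ba was ENSRNOG00000007793 with 0.599 and 1.67.

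The tissue label was checked on cardiomyocyte genes. Of 117 genes on lists for antigen presentation, the interferon γ response and cell types, 7 had an ID through the study's table, all of them cardiomyocyte or muscle genes. Myh6, the α-myosin heavy chain of cardiomyocytes, was bright in every channel, with a lowest spot of 11813 and a saturated spot in NS (−). The 7 genes had HS (−)/NS (−) ratios between 0.202 and 0.480, where the lowest, that of Myh6, is an upper limit because of saturation, and HS (ch+)/HS (−) ratios between 1.43 and 1.77. They came from the list chosen on these arrays, so they moved with Cd74 by that choice, and their part in the ratios of the 4 genes was not tested. The other 110 genes, among them all markers of macrophages, dendritic cells, B cells and T cells and the beta chains of class II, were not analysed here, as no ID was paired with them. In bulk tissue, fewer cells of a type and less RNA per cell cannot be told apart.

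**Figure D4:**
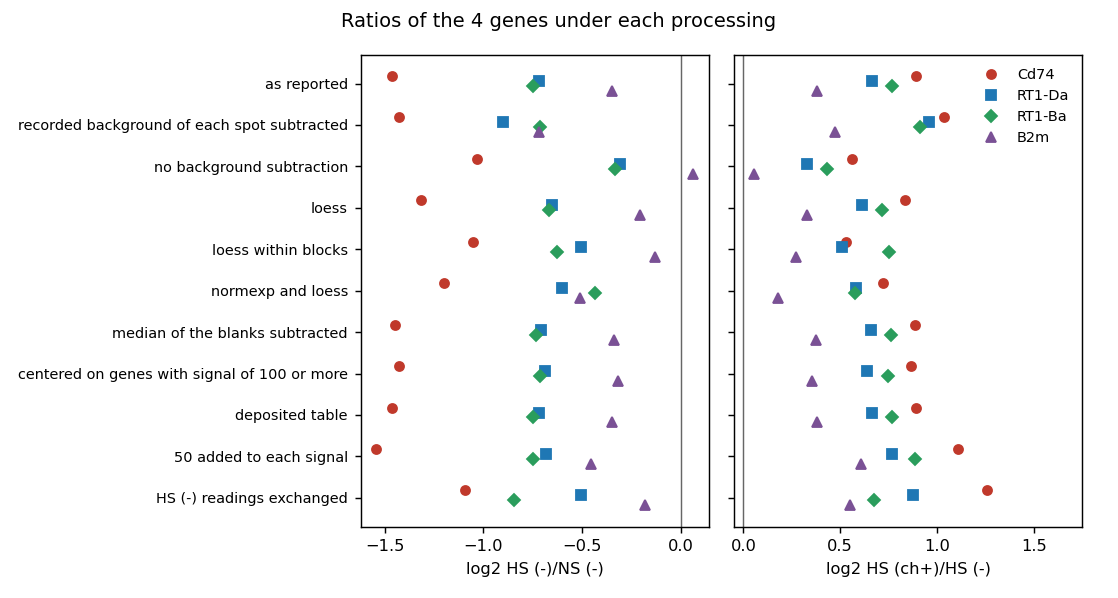
Log2 HS (−)/NS (−) (left) and log2 HS (ch+)/HS (−) (right) of the 4 genes as reported and with each other background correction, normalization or centering. Cd74 stayed the lowest of the 4 in the left panel in every row, whereas B2m ran from 0.608 to 1.04 as a ratio and crossed 1 without background subtraction.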

How the data were processed

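RNA of 3 rats per group was pooled, and 3 pools were hybridized to 2 dual-color arrays. The authors deposited the intensity of each spot and a background value beside it in Cy5 and Cy3, merged from scans at 3 gains, and a table of log2 values with no statement of scale, centering or direction. By comparison with the intensities, the deposited log2 values were the Cy3 over Cy5 ratio after subtraction of the mean of the 4553 blank spots without the highest and lowest 5%, without genes within 2 SD of it, and minus the median of genes and 521 control spots (0.17 and 0.38). Their medians over genes were 0.0020 and 0.0010. Ratios recalculated in this way differed from them by at most 2.7e-05 and were used here, with array 1 inverted to HS (−)/NS (−).

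The members, gene lists, limits and alternatives were chosen with earlier results of these data known. The genes named were the 4 members, the 5 genes nearest to Cd74 and the 3 nearest to each other member (at most 2 by ID), Myh6 and genes of the lists with an ID. The limits were 0.5 and 1.4 with an HS (−) signal of at least 100, as in the study, and the inverse 0.714. With 1 array per comparison, no p-value was calculated, and the number of arrays limits the precision. Alternatives were other background corrections, loess, normexp with an offset of 50 and loess, other centering, 50 added to each signal, the deposited table and exchanged HS (−) readings. The calculation of the ratios was checked on simulated data with known changes. Promoters and positions came from RefSeq (GRCr8), matched by symbol for 4 of 4 genes; the genome build of the array's IDs is not given in the sources used here. Python 3.11.15, numpy 2.4.6, pandas 2.3.3, matplotlib 3.10.9, R 4.3.3 and limma 3.58.1 were used.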

Additional observations from a re-analysis of the deposited data

How the results depend on the processing

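The HS (ch+)/HS (−) ratio of all 4 genes stayed above 1, and the HS (−)/NS (−) ratio of Cd74, RT1-Da and RT1-Ba below 1, under each of the 10 alternatives. For the deposited table, which the reported processing reproduces, this was fixed in advance. All 10 alternatives use the same arrays and dyes, so they are no separate evidence. Values of the 2 measured ratios that moved by over 1 SD of the paired HS (−) readings are given here, and the cause was not tested. Without background subtraction, HS (−)/NS (−) was 0.488 for Cd74, 0.807 for RT1-Da, 0.795 for RT1-Ba and 1.04 for B2m, which reversed, and HS (ch+)/HS (−) was 1.47, 1.26, 1.35 and 1.04, so that 1 of the 4 genes instead of 3 passed each 1.4-fold limit. This setting moved the medians of all genes by 0.32 and -0.27 on the log2 scale; relative to them B2m was at 0.853. Subtracting the background value of each spot moved the median of HS (ch+)/HS (−) by 0.24 and gave 0.536 and 1.95 for RT1-Da and a HS (−)/NS (−) of 0.608 for B2m. Loess within blocks gave 0.481 and 1.44 for Cd74, and HS (−)/NS (−) of 0.704 for RT1-Da and 0.915 for B2m. Normexp with loess gave 0.435 and 1.65 for Cd74, 0.740 and 1.49 for RT1-Ba, and 0.702 and 1.13 for B2m. Exchanged HS (−) readings gave 0.468 and 2.39 for Cd74, 0.704 and 1.84 for RT1-Da, and 0.884 and 1.46 for B2m. Adding 50 to each signal moved the median of HS (ch+)/HS (−) by 0.19 and gave 2.16 for Cd74 and 1.52 for B2m. Relative to the median of all genes in the same setting, HS (−)/NS (−) ranged from 0.371 to 0.483 for Cd74, 0.584 to 0.726 for RT1-Da, 0.574 to 0.737 for RT1-Ba and 0.663 to 0.911 for B2m. Without a signal minimum, 2.75% instead of 1.38% of genes had an HS (−)/NS (−) ratio under 0.5. Single gains were not run, as the files hold 1 merged reading per spot. No paired analysis was possible because each group was 1 pool.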

Other observations

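The background values recorded beside the spots differed between the arrays for some of the 4 genes. For RT1-Ba they amounted to 61.0% of the HS (−) spot and 62.6% of the NS (−) spot on array 1, and to 17.0% of the HS (−) spot and 14.5% of the HS (ch+) spot on array 2. For B2m they were 48.8% and 35.2% on array 1 and 48.9% and 49.5% on array 2, so that HS (−) and NS (−) differed on array 1. For RT1-Da they were 32.3% of the HS (−) spot and 24.8% of the NS (−) spot on array 1. On array 2 they were 46.5% of its HS (−) spot and 39.0% of its HS (ch+) spot. For Cd74 all 4 values lay between 14.5% and 20.8%.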
